A study of Mus musculus with 6 samples.

Results

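The effect of adding an anti-PD-1 antibody to KS100 was read from a pair of RNA libraries of mouse melanoma tumours. The genes described are those with 20 or more counts in either library, 209 of 43629 genes in the table. B16F10 cells, a pigmented mouse melanoma line, were grown under the skin of female C57BL/6J mice that were 8 weeks old at injection. Dosing was daily until control tumours reached 2000 mm3. The tumours received KS100 with anti-PD-1, or KS100 with control IgG, here called the KS100+anti-PD-1 and KS100 pools. Values from 4 further pools stand beside them: DMSO with anti-PD-1 (anti-PD-1), DMSO with control IgG (control), AZD5363 and MK1775 with anti-PD-1, and AZD5363 and MK1775 with control IgG. RNA was extracted from the pooled tumours of a treatment, so each treatment is 1 library of 1 cell line, with no replicate, and no p-value can be given.

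KS100 inhibits aldehyde dehydrogenases, enzymes that clear reactive aldehydes. Anti-PD-1 blocks an inhibitory receptor of T cells, whose engagement by PD-L1 (Cd274) holds back killing of tumour cells, and B16F10 tumours are known for few infiltrating T cells. AZD5363 inhibits the kinase AKT and MK1775 the kinase WEE1. The libraries were 3′ tag libraries: an oligo-dT primer copies RNA from its poly(A) tail, and the tag near that priming site is counted. Such a primer can also anneal to runs of A inside an RNA.

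The KS100+anti-PD-1 library held 25521 counts and the KS100 library 44748, against 1002088 in anti-PD-1, 1591673 in control, 338474 in AZD5363+MK1775+anti-PD-1 and 26639 in AZD5363+MK1775. At a limit of 3 counts for a gene at 0, such a gene could stand at up to 118 CPM (counts per 1000000) in KS100+anti-PD-1 and at up to 67.0 CPM in KS100. Melanocyte lineage markers, which mark B16F10 cells, summed to 61 counts in KS100+anti-PD-1 and 205 in KS100, with 6 of 7 detected in both and Tyr at 0 in both. They made up 0.239% of all counts in KS100+anti-PD-1 and 0.458% in KS100, while in the other 4 pools they took 1.73% (anti-PD-1), 2.03% (control), 1.01% (AZD5363+MK1775+anti-PD-1) and 0.935% (AZD5363+MK1775). In bulk RNA, fewer cells of a type and less RNA per cell cannot be told apart. A gene was called where its TMM-normalised ratio, KS100+anti-PD-1 over KS100, was at least 2 in either direction and its 95% exact interval lay wholly beyond 1.5-fold. Intervals and limits cover counting error only, since each side is 1 library. No molecular identifiers are named in the labels, so copies of 1 molecule cannot be told apart and the intervals may be too narrow.

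The largest difference between the pools was a satellite-like transcript, and its sequence is shown because it is a tandem repeat rich in A. Gm26870 is annotated as a long intergenic non-coding RNA at chr9:3000282-3038313 on the minus strand (GRCm38), at the centromeric end of the chromosome. In its best-ordered transcript, the letters matched those 234 bases further on at 95.9% of positions (81.5% and 78.3% in its other annotated transcripts), the period of the mouse pericentromeric major satellite. The first 2 units of that transcript follow, at chr9:3038077-3038310 and chr9:3037843-3038076, minus strand, 5′ to 3′, with runs of 5 or more A in capitals. The sequence is that of the GENCODE M21 transcript.
Gm26870 unit 1: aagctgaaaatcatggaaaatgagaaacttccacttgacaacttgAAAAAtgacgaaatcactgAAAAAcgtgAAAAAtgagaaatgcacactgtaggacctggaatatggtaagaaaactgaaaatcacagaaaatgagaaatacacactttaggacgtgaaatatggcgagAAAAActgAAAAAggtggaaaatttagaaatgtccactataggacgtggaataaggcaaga
Gm26870 unit 2: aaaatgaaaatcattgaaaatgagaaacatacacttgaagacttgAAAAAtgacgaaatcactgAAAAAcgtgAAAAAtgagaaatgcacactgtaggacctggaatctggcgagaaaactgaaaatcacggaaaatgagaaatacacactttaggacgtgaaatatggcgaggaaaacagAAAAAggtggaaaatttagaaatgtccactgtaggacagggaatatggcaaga
Unit 2 differs from unit 1 at 17 positions, a match of 92.7%, and both are 46.6% A.

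The mitochondrial transcripts split most clearly by gene, and the longest run of A in each is shown for the 8 mRNAs among the members, with 12 flanking bases on either side and the run in capitals. All are on the plus strand of chrM (GRCm38).
mt-Nd2, chrM:4040-4071: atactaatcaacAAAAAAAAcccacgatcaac
mt-Nd5, chrM:12624-12654: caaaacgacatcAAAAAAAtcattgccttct
mt-Nd4, chrM:10215-10245: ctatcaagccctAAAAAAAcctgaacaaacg
mt-Co1, chrM:6104-6134: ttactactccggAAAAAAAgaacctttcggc
mt-Nd1, chrM:3608-3637: acatcttctatgAAAAAActttctacccct
mt-Cytb, chrM:14147-14175: gacaaacatacgAAAAAcacacccattat
mt-Atp6, chrM:8277-8305: ccgacacaaactAAAAAgctcacttgccc
mt-Co2, chrM:7144-7171: aatattaacaacAAAActaacacataca
The run was 8 bases long in mt-Nd2, 7 in mt-Nd5, mt-Nd4 and mt-Co1, 6 in mt-Nd1, 5 in mt-Cytb and mt-Atp6, and 4 in mt-Co2. A run is a description of the sequence, and priming from it was not tested.

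Among the 209 genes, 9 were higher in KS100+anti-PD-1 (percent called 4.31%), 71 were lower (percent called 34%) and 129 were not past the rule (either direction, 38.3%). The median log2 ratio was -1.35, with quartiles of -1.90 and -0.69, and 188 genes had a ratio below 1. How the genes met the minimum of 20 counts bears on this: 25 met it in both pools, 6 in KS100+anti-PD-1 alone and 178 in KS100 alone, the deeper library. The 25 that met it in both pools comprised 3 higher, 6 lower and 16 not past, with a median log2 ratio of -0.41. At the threshold itself, 14 members had exactly 20 counts in the larger pool, with a median log2 ratio of -0.78, and 16 genes just outside it had 19, with a median of -1.07. The shift of the whole set depends on the scaling, since TMM factors from these pools alone move every log2 ratio up by 1.05 and totals over well-counted genes (100 or more control counts, nuclear and protein-coding) by 0.82. With the first, 15 genes were higher and 11 lower, and with the second 14 were higher and 20 lower. Both scalings move every ratio up, so they could remove no higher call and add no lower one. The 9 higher genes were thus called under both, and all lower genes of both were among the 71. Library totals, which move every log2 ratio by -0.13, also kept the 9.

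**Figure D1:**
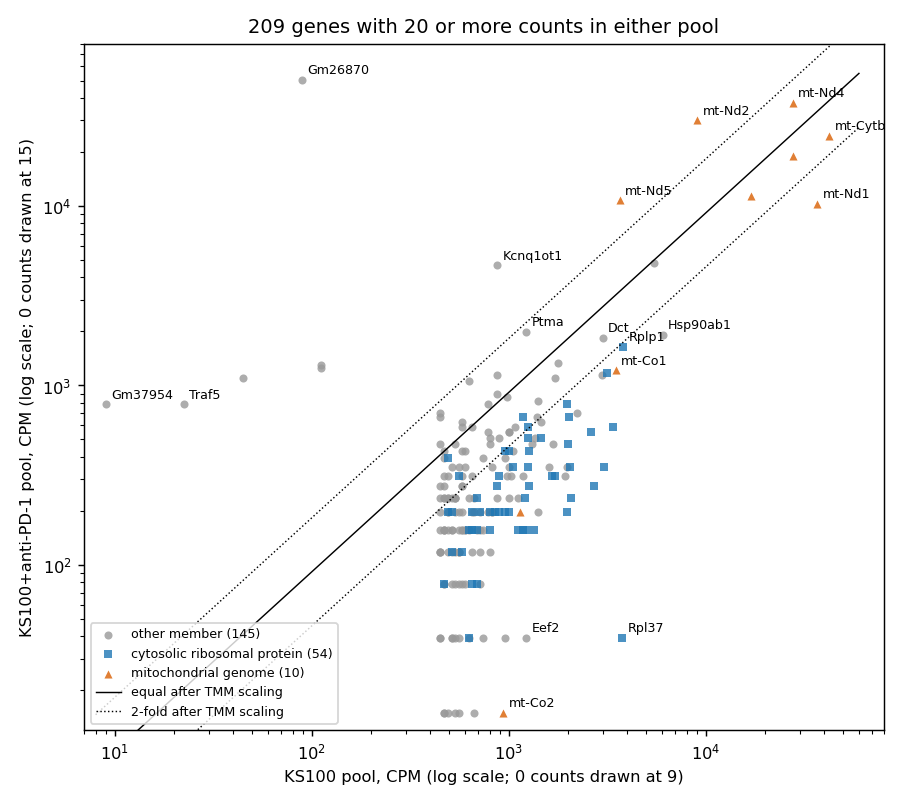
Level of each of the 209 genes in the KS100+anti-PD-1 pool (vertical) and the KS100 pool (horizontal), in CPM on log axes; points are single genes, squares cytosolic ribosomal protein genes, triangles mitochondrial genes. The solid line marks equality after TMM scaling over all 6 pools. Gm26870 lies far above it with 1291 counts in KS100+anti-PD-1 and 4 in KS100. All 54 ribosomal protein genes lie below it (49 of 54 with TMM factors from the KS100 pools alone), and 188 of all 209 genes do. Of the 209 genes, 178 met the minimum in KS100 alone.

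Gm26870 had 1291 counts in KS100+anti-PD-1 and 4 in KS100. The other pools held 0 (anti-PD-1), 120 (control), 14 (AZD5363+MK1775+anti-PD-1) and 2 (AZD5363+MK1775). The ratio was 619 (interval 241 to 2276), and this locus alone took 50586 CPM of the KS100+anti-PD-1 library and 89.4 CPM of the KS100 library. Related repeats held few counts in this pair: of 13 annotated genes, Gm26870 included, that share at least 50 of its 25-letter words, Gm10800 had 7 counts in KS100+anti-PD-1, 5 in KS100, 0 in anti-PD-1 and 597 in control. Gm21738 had 5 counts in KS100+anti-PD-1, 2 in KS100, 0 in anti-PD-1 and 174 in control. The KS100+anti-PD-1 counts thus lay at Gm26870, while the control counts were spread over several of these genes. How reads with several matches were assigned is not given in the sources used here, so the value of any single repeat gene is uncertain.

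Another 4 nuclear non-coding or pseudogene loci were higher, beside the nuclear copy of mt-Co1 described with the mitochondrial genes. Kcnq1ot1, the imprinted long non-coding RNA that silences neighbouring genes on the paternal copy of chromosome 7, had 119 counts in KS100+anti-PD-1 and 39 in KS100, a ratio of 5.85 (4.05 to 8.63). Its counts were 24 in anti-PD-1, 93 in control, 92 in AZD5363+MK1775+anti-PD-1 and 6 in AZD5363+MK1775. Gm4117, an antisense transcript on chromosome 13, had 32 counts in KS100+anti-PD-1 and 5 in KS100, a ratio of 12.3 (4.75 to 40.4), with 0 to 4 counts in each of the other pools. The strand setting of the counting is not given, so reads of either antisense gene cannot be told apart from those of an overlapping partner. The pseudogene 4930432E11Rik had 28 counts in KS100+anti-PD-1 and 2 in KS100, a ratio of 26.9 (6.77 to 233). Gm37954, an unclassified locus on chromosome 1, had 20 counts in KS100+anti-PD-1 and 0 in KS100, at least 12.8-fold higher. It was at 0 in the other 4 pools too. The longest run of A in the annotated transcript was 41 bases in Kcnq1ot1, 16 in Gm4117, 8 in both 4930432E11Rik and Gm37954, and 7 in Traf5, described next. Its median was 8 bases over the 7 higher nuclear members, 5 over 67 lower ones and 7 over 124 that were not past the rule, where it reached 31. These runs were not adjusted for length. The transcript had 93092 bases in Kcnq1ot1 and 52401 in Gm4117. Median exon length was 4566 bases over higher nuclear members, 2679 over lower ones and 4229 over those not past the rule.

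A single nuclear protein-coding gene was higher. Traf5, an adaptor of the TNF receptor superfamily in lymphocyte signalling, had 20 counts in KS100+anti-PD-1 and 1 in KS100, a ratio of 38.4 with an interval of 6.14 to 1590. The deep pools held 3 counts (anti-PD-1) and 6 (control), and both AZD5363+MK1775 pools held 0. Traf5 is thus a gene at the minimum count whose fold is poorly bounded. The next coding members by ratio were Hsp90aa1, an inducible cytosolic chaperone, with 27 counts in KS100+anti-PD-1 and 28 in KS100 (1.85, interval 1.05 to 3.26), and Ptma, prothymosin alpha, with 51 counts in KS100+anti-PD-1 and 55 in KS100 (1.78, interval 1.19 to 2.65). Neither was past the rule, though scaled to well-counted genes both were higher, Hsp90aa1 at 3.26 and Ptma at 3.14.

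The mitochondrial genome encodes subunits of the respiratory chain and its ATP synthase, all but mt-Nd6 on one long precursor RNA. Summed over its mRNAs, the pools did not differ beyond the rule, with 2940 counts in KS100+anti-PD-1, 5649 in KS100 and a ratio of 0.998 (0.955 to 1.04), though with TMM factors from the KS100 pools alone the sum was higher, at 2.07 (1.98 to 2.17). The single transcripts did not share this value. Complex I subunit mt-Nd2 had 767 counts in KS100+anti-PD-1 and 406 in KS100, a ratio of 3.62 (3.21 to 4.10). Complex I subunit mt-Nd5 had 274 counts in KS100+anti-PD-1 and 164 in KS100, a ratio of 3.21 (2.63 to 3.91). Complex I subunit mt-Nd1 went the other way, with 263 counts in KS100+anti-PD-1 and 1652 in KS100, a ratio of 0.305 (0.267 to 0.348). The cytochrome c oxidase transcript mt-Co1 was lower at 0.381 (0.251 to 0.563), with 31 counts in KS100+anti-PD-1 and 156 in KS100. The ATP synthase transcript mt-Atp6 was lower at 0.188 (0.0586 to 0.468), with 5 counts in KS100+anti-PD-1 and 51 in KS100. The oxidase subunit mt-Co2 had 0 counts in KS100+anti-PD-1 and 42 in KS100, at least 7.30-fold lower. Not past the rule was mt-Nd4, of complex I, with 959 counts in KS100+anti-PD-1 and 1238 in KS100 (1.49, interval 1.36 to 1.62). Nor was mt-Cytb, of complex III, with 628 counts in KS100+anti-PD-1 and 1903 in KS100 (0.633, interval 0.578 to 0.693), nor were the mitochondrial ribosomal RNAs mt-Rnr1 at 0.733 and mt-Rnr2 at 0.751. Under each of the 4 scalings mt-Nd2 and mt-Nd5 were higher and mt-Co2 was lower. For the higher calls only library totals could have changed this. With TMM factors from the KS100 pools alone and with well-counted genes, mt-Nd1, mt-Co1 and mt-Atp6 were not past the rule and mt-Nd4 was higher, at 3.08 with the KS100 pools alone and 2.62 with well-counted genes.

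Within a pool these transcripts can be set against each other without any scaling. Since mt-Nd2 and mt-Nd5 were called higher and mt-Nd1 lower, their proportions in this pair restate those calls. There were 2.92 counts of mt-Nd2 per count of mt-Nd1 in KS100+anti-PD-1 (interval 2.53 to 3.37) and 0.246 in KS100 (0.220 to 0.274). The other pools had 0.102 (anti-PD-1), 0.0878 (control), 0.722 (AZD5363+MK1775+anti-PD-1) and 0.0696 (AZD5363+MK1775). The proportion was thus highest in KS100+anti-PD-1, and within each inhibitor arm the intervals of the antibody and IgG pools did not overlap. The mt-Nd5 to mt-Nd1 proportion was 1.04 in KS100+anti-PD-1 and 0.0993 in KS100, against 0.0745 (anti-PD-1), 0.0514 (control), 0.204 (AZD5363+MK1775+anti-PD-1) and 0.0832 (AZD5363+MK1775). For mt-Nd4 to mt-Nd1 it was 3.65 in KS100+anti-PD-1 and 0.749 in KS100, with 0.762 in AZD5363+MK1775+anti-PD-1 and 0.641 in AZD5363+MK1775. For mt-Cytb to mt-Nd1 it was 2.39 in KS100+anti-PD-1 and 1.15 in KS100, near 2.36 in anti-PD-1 and 1.93 in control. In the AZD5363+MK1775 arm mt-Cytb went the other way, at 0.623 with the antibody and 1.76 without.

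**Figure D2:**
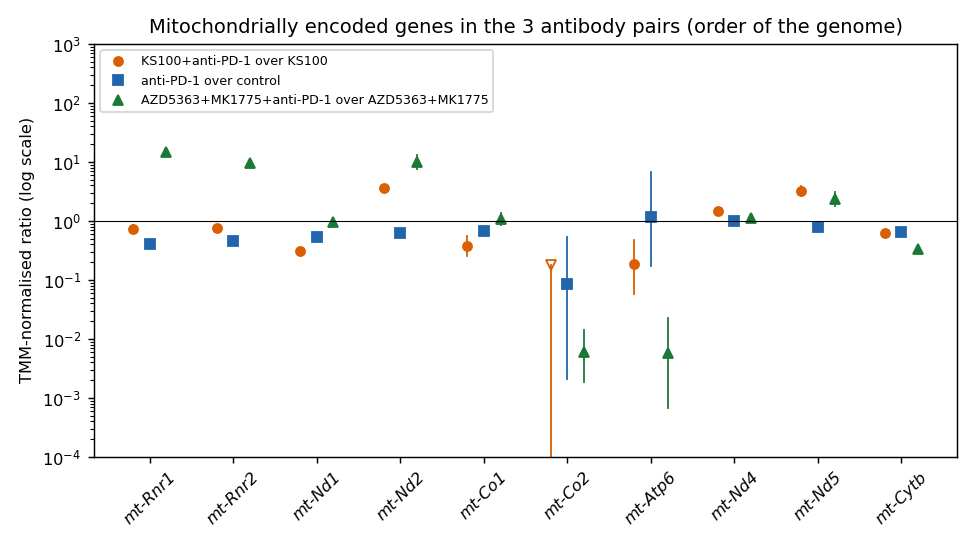
Ratio of each mitochondrially encoded member in the 3 antibody pairs on a log axis, each with its 95% exact interval, genes in the order of the mitochondrial genome; the open triangle marks the upper interval bound of mt-Co2, at 0 counts in KS100+anti-PD-1, and its line runs to the foot of the axis. In KS100+anti-PD-1 over KS100, mt-Nd2 at 3.62 and mt-Nd5 at 3.21 lie above 1 and mt-Nd1 at 0.305 lies below it.

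Nuclear copies of mitochondrial sequence were also members. Gm29216 on chromosome 1 differs from part of mt-Co1 at 1 of 483 aligned bases (99.8% identity). It had 33 counts in KS100+anti-PD-1 and 5 in KS100, a ratio of 12.7 (4.91 to 41.6), while mt-Co1 was lower. Gm10925, identical to mt-Atp6 over 678 bases, was lower at 0.152 (0.0478 to 0.374), with 5 counts in KS100+anti-PD-1 and 63 in KS100. Gm28437, identical to mt-Co3 over 783 bases, had 0 counts in KS100+anti-PD-1 and 24 in KS100, at least 4.17-fold lower. Gm28438, at 99.7% identity to mt-Nd3, had 0 counts in KS100+anti-PD-1 and 21 in KS100, at least 3.65-fold lower. Gm13341, at 97.6% identity to mt-Co2, had 1 count in KS100+anti-PD-1 and 33 in KS100, a ratio of 0.0581 (0.00143 to 0.347). Reads of such a pair can be split or dropped by the counting, so these values and those of the mitochondrial partners are uncertain. Gm29216 was higher and Gm28437 lower under each of the 4 scalings, of which only library totals could have removed the higher call.

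Cytosolic ribosomal protein genes, whose short polyadenylated mRNAs supply the subunits of the ribosome, were the largest related group of members. All 54 had a ratio below 1, though 49 of the 54 with TMM factors from the KS100 pools alone. Of all 209 genes 188 had a ratio below 1, and 178 met the minimum in KS100 alone. Entry by that minimum thus favours ratios below 1. By the rule 29 of the 54 were lower, 25 not past and 0 higher. Their median log2 ratio was -1.72, against -1.35 over all 209 genes. With TMM factors from the KS100 pools alone 5 were lower, and their median of -0.84 stood against -0.43 over all members. Rpl37, of the large subunit, had 1 count in KS100+anti-PD-1 and 169 in KS100, a ratio of 0.0114 (0.000286 to 0.0641). Small subunit genes were also among the lowest: Rps29 had 7 counts in KS100+anti-PD-1 and 122 in KS100 (0.110), and Rps13 had 9 in KS100+anti-PD-1 and 136 in KS100 (0.127). Rps27 stood at 0.109 and Rps15a at 0.124. At the other end, Rplp1, a stalk protein, had 42 counts in KS100+anti-PD-1 and 171 in KS100, a ratio of 0.471 (0.328 to 0.664). Rpl4, of the large subunit, had 10 counts in KS100+anti-PD-1 and 22 in KS100, a ratio of 0.872 (0.369 to 1.92), and was not past the rule. Many of these genes have processed pseudogenes, so their single values are uncertain.

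Over all 96 genes taken by symbol as ribosomal protein genes, the pools held 532 counts in KS100+anti-PD-1 and 3528 in KS100. The ratio was 0.289 (0.264 to 0.317). The symbol pattern also matches kinases of the Rps6k family, which are not ribosomal proteins, wherever this set is used or left out. These genes took 2.08% of all counts in KS100+anti-PD-1 and 7.88% in KS100, against 8.26% (anti-PD-1), 8.09% (control), 2.58% (AZD5363+MK1775+anti-PD-1) and 8.68% (AZD5363+MK1775). The share was thus low in both pools that combine inhibitor and antibody and between 7.88% and 8.68% in the other 4. As a share of the counts in nuclear protein-coding genes with 100 or more control counts, it was 8.49% in KS100+anti-PD-1 (7.81 to 9.21) and 16.7% in KS100 (16.2 to 17.2). On that scale the other pools stood at 10.4% (anti-PD-1), 9.98% (control), 5.64% (AZD5363+MK1775+anti-PD-1) and 13.2% (AZD5363+MK1775). This removes the shift of well-counted genes only in part. Without ribosomal protein genes, the KS100+anti-PD-1 over KS100 ratio was 0.658 for 100 to 999 control counts and 0.513 for 1000 or more.

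The other 129 nuclear protein-coding members, with a median log2 ratio of -1.21, comprised 1 higher, 32 lower and 96 not past. Translation factors included Eef2, which moves the ribosome along the mRNA, with 1 count in KS100+anti-PD-1 and 55 in KS100 (0.0349, interval 0.000868 to 0.203). Eef1b2, an exchange factor of elongation, had 8 counts in KS100+anti-PD-1 and 86 in KS100 (0.178, interval 0.0747 to 0.368). Membrane and secretory genes included Surf4, a cargo receptor of the endoplasmic reticulum, with 0 counts in KS100+anti-PD-1 and 30 in KS100, at least 5.21-fold lower. Atp6v1f, a subunit of the proton pump of lysosomes and melanosomes, had 0 counts in KS100+anti-PD-1 and 25 in KS100, at least 4.34-fold lower. Slc7a5, an amino acid transporter, had 0 counts in KS100+anti-PD-1 and 21 in KS100, at least 3.65-fold lower. Atp1b3, a sodium pump subunit, had 0 counts in KS100+anti-PD-1 and 22 in KS100, at least 3.82-fold lower. Higher counts stood behind Hsp90ab1, a constitutive chaperone, with 49 in KS100+anti-PD-1 and 271 in KS100 (0.347, interval 0.250 to 0.472). Ldha, the lactate dehydrogenase of glycolysis, had 29 counts in KS100+anti-PD-1 and 133 in KS100 (0.418, interval 0.270 to 0.629). Actb, the cytoskeletal actin, had 12 counts in KS100+anti-PD-1 and 75 in KS100 (0.307, interval 0.152 to 0.568). Of the genes in this paragraph, Eef2, Surf4 and Atp6v1f were lower under each of the 4 scalings, and Hsp90ab1, Ldha and Actb were not past the rule when scaled to well-counted genes.

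Of the pigment cell genes among the members, 1 was called. Mitf, the master regulator of melanocytes, was lower, with 1 count in KS100+anti-PD-1 and 20 in KS100 (0.0959, interval 0.00231 to 0.600), and it met the minimum exactly. Dct, an enzyme of melanin synthesis and the pigment gene with the most counts, had 47 counts in KS100+anti-PD-1 and 134 in KS100 (0.673, interval 0.472 to 0.945) and was not past the rule. Tyrp1, a melanosomal enzyme, had 4 counts in KS100+anti-PD-1 and 26 in KS100 (0.295), and Gpnmb, a melanosomal membrane protein, had 5 in KS100+anti-PD-1 and 35 in KS100 (0.274). Neither was past the rule, and Mitf was not past it when scaled to well-counted genes. Summed over 20 melanin and melanosome genes the pools held 87 counts in KS100+anti-PD-1 and 268 in KS100, a ratio of 0.623 (0.483 to 0.796).

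The summed ratio of coding genes was lower the higher their count in the control pool, which belongs to neither side of the pair. Nuclear protein-coding genes with 1000 or more control counts, 215 in all, had a summed ratio of 0.416 (0.394 to 0.440), and those with 100 to 999 had 0.645 (0.624 to 0.667). The ratio was 1.23 (1.18 to 1.27) for 10 to 99 control counts, 1.74 (1.62 to 1.86) for 1 to 9, and 2.15 (2.03 to 2.27) for 0. Without ribosomal protein genes the top class stood at 0.513 (0.480 to 0.547). Genes with 100 or more control counts took 24.4% of all counts in KS100+anti-PD-1 and 47.2% in KS100. The other pools stood at 79.0% (anti-PD-1), 80.9% (control), 45.5% (AZD5363+MK1775+anti-PD-1) and 65.5% (AZD5363+MK1775). Ribosomal RNA took 27.6% of all counts in AZD5363+MK1775+anti-PD-1 and 3.01% in AZD5363+MK1775, which lowers the share left for coding genes in the first. Nuclear protein-coding genes of any control count took 65.0% in AZD5363+MK1775+anti-PD-1 and 82.0% in AZD5363+MK1775. In the AZD5363+MK1775 arm the antibody ratio also fell with control abundance from the class of 1 to 9 counts (3.57) through 10 to 99 (1.97) and 100 to 999 (1.37) to 1000 or more (0.918), while the class at 0 stood at 1.25.

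**Figure D3:**
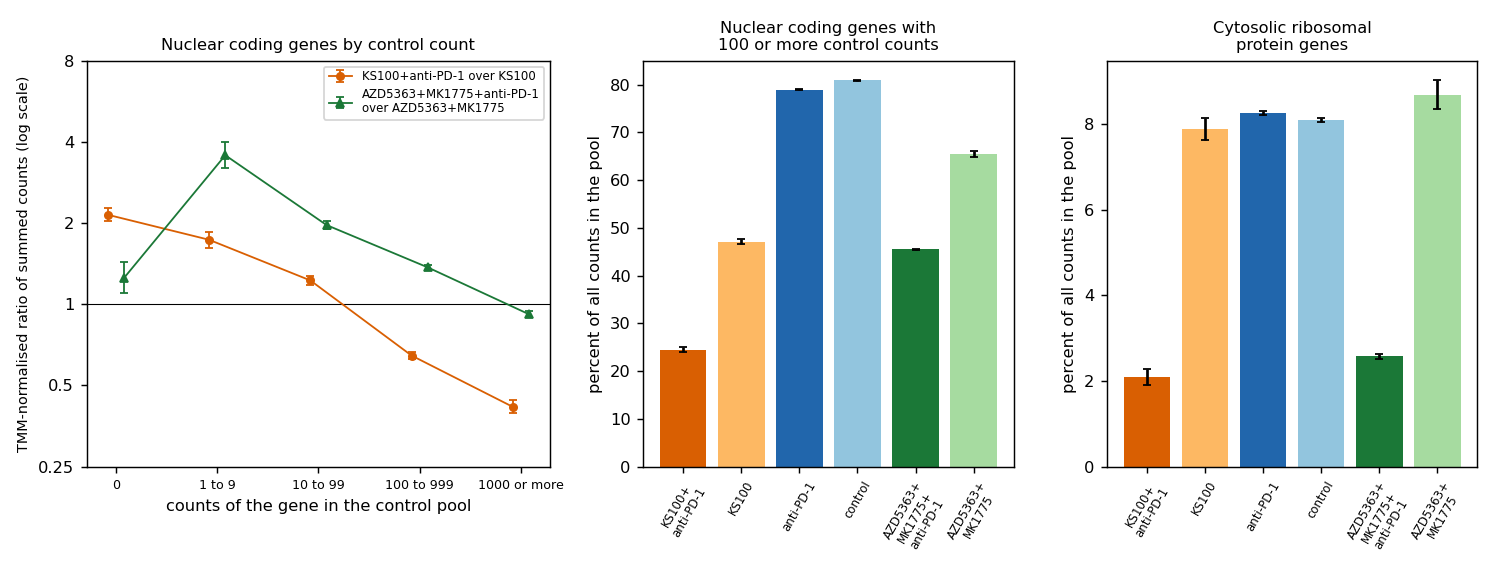
Left, summed ratio (log axis, 95% exact interval) of nuclear protein-coding genes grouped by their count in the control pool, for 2 antibody pairs; middle and right, share of each pool's counts (bars, exact binomial interval) in well-counted coding genes and in cytosolic ribosomal protein genes. The KS100+anti-PD-1 ratios run from 2.15 for genes at 0 in control to 0.416 for genes with 1000 or more control counts. Ribosomal protein genes take 2.08% of KS100+anti-PD-1 counts and 7.88% of KS100 counts. Shares are of all counts, of which ribosomal RNA takes 27.6% in AZD5363+MK1775+anti-PD-1 and 3.01% in AZD5363+MK1775.

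Genes without a count in control and in anti-PD-1, 29217 in number, took 24.4% of counts in KS100+anti-PD-1 and 10.4% in KS100 (ratio 2.57, interval 2.48 to 2.67), though these DMSO libraries were the deepest. They took 0.814% in AZD5363+MK1775+anti-PD-1 and 1.69% in AZD5363+MK1775. By annotation, pseudogenes took 6.78% in KS100+anti-PD-1 and 2.72% in KS100, and antisense genes 3.01% in KS100+anti-PD-1 and 1.25% in KS100. Long intergenic non-coding RNAs without Gm26870 and ribosomal RNA took 3.25% in KS100+anti-PD-1 and 1.48% in KS100. Nuclear protein-coding genes took 59.7% in KS100+anti-PD-1 and 72.9% in KS100. Among these without ribosomal protein genes, genes spanning over 100 kb held 22.5% of the counts in KS100+anti-PD-1 and 18.3% in KS100, and genes under 10 kb held 16.5% in KS100+anti-PD-1 and 21.1% in KS100. In control, genes over 100 kb held 8.03% and genes under 10 kb 28.4%. The KS100+anti-PD-1 pool detected 9373 genes, against 10051 in KS100, for which 7738 are expected at the depth of KS100+anti-PD-1. In KS100+anti-PD-1, 53.5% of detected genes had 1 count, against 42.2% in KS100. RNA quality, genomic DNA and internal priming were not measured in these counts, and their part in these shares was not tested.

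Gene lists were summed over all their genes, members or not, to reach genes too low to be read singly. The lysosome list was lowest, with 18 counts in KS100+anti-PD-1 and 129 in KS100 (0.268, interval 0.154 to 0.440), and its most counted genes in KS100 were Cd63, with 4 counts in KS100+anti-PD-1 and 31 in KS100, and Npc2, with 3 in KS100+anti-PD-1 and 22 in KS100. The other lower lists were ribosomal protein (0.325), cholesterol synthesis (0.379), proteasome (0.400), translation factors (0.458) and cytoskeleton (0.480), with between 17 and 200 counts in KS100+anti-PD-1 and between 86 and 1182 in KS100. All nuclear protein-coding genes with 100 or more control counts stood at 0.567 (0.551 to 0.583), and scaled to that class 0 lists were lower. On that scale the lysosome list stood at 0.472 (0.271 to 0.776) and the ribosomal protein list at 0.573 (0.490 to 0.666). Not past the rule were glycolysis (0.538), hypoxia (0.470), the nuclear respiratory chain (0.474), heat shock (0.669), the unfolded protein and stress response (0.561), mitosis (1.19) and DNA replication (0.740). The heat shock value rests on Hsp90ab1: without it the list held 65 counts in KS100+anti-PD-1 and 56 in KS100 and was higher, at 2.23 (1.53 to 3.24). Among the lower lists, leaving out the gene with the most counts kept ribosomal protein and lysosome lower, while translation factors (0.578), proteasome (0.484), cytoskeleton (0.583) and cholesterol synthesis (0.395) were no longer past the rule. The mitosis list held 56 counts in KS100+anti-PD-1 and 90 in KS100, and mitosis was higher at 2.48 (1.74 to 3.49) with TMM factors from the KS100 pools alone. The glycolysis list held 55 in KS100+anti-PD-1 and 196 in KS100.

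Higher lists were interferon-gamma response, skeletal muscle and long non-coding RNA, under each of the 4 scalings. Only library totals could have removed a higher call. A scaling moves a list and genes of like control count together. The interferon-gamma list held 30 counts in KS100+anti-PD-1 and 13 in KS100, a ratio of 4.43 (2.24 to 9.25). Within it Gbp7, a guanylate-binding protein of cell-autonomous defence, had 4 counts in KS100+anti-PD-1 and 0 in KS100. Of the list's 14 genes with a count none reached 20, and nuclear coding genes of 10 to 99 control counts, the class of 9 of them, stood at 1.23. The skeletal muscle list held 24 counts in KS100+anti-PD-1 and 13 in KS100 (3.54, interval 1.73 to 7.57). It was led by Ttn, which encodes the sarcomere protein titin, with 14 in KS100+anti-PD-1 and 8 in KS100, while Acta1, Ckm and Tnnt3 were at 0 in both pools. Without Ttn the muscle list held 10 counts in KS100+anti-PD-1 and 5 in KS100 and was not past the rule (3.84, interval 1.19 to 14.3). Nuclear coding genes of 10 to 99 control counts, the class of Ttn, stood at 1.23, and those of 1 to 9 at 1.74. The long non-coding RNA list held 158 counts in KS100+anti-PD-1 and 135 in KS100 (2.25, interval 1.77 to 2.85) and stood at 0.779 (0.523 to 1.14) without Kcnq1ot1. Within it Gas5, a host of small nucleolar RNAs, was lower, with 1 count in KS100+anti-PD-1 and 24 in KS100 (0.0799, interval 0.00194 to 0.490), but not past the rule when scaled to well-counted genes.

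The genes closest to the treatments were at the edge of detection. Pdcd1, which encodes PD-1, and Pdcd1lg2 were at 0 in both pools, and Cd274 had 1 count in KS100+anti-PD-1 and 0 in KS100. The aldehyde dehydrogenase list held 11 counts in each pool (1.92, interval 0.754 to 4.88), of which Aldh1a3 had 7 in KS100+anti-PD-1 and 3 in KS100. T cell markers gave 1 count in each pool, with 6 of 7 at 0, and cytotoxic lymphocyte markers gave 1 count in KS100+anti-PD-1 and 0 in KS100. The wider T cell list held 5 counts in KS100+anti-PD-1 and 2 in KS100, the MHC class II list 5 in KS100+anti-PD-1 and 1 in KS100, and the macrophage list 5 in KS100+anti-PD-1 and 14 in KS100. The neutrophil list held 5 counts in KS100+anti-PD-1 and 1 in KS100, and the chemokine and cytokine list 9 in KS100+anti-PD-1 and 6 in KS100. Each of these lists held under 20 counts in both pools, the minimum for a call. Scaled to well-counted genes, the ratio was 8.46 (1.39 to 88.9) for T cell, 16.9 (1.89 to 800.4) for both MHC class II and neutrophil, 5.08 (1.61 to 17.3) for chemokines and cytokines and 1.21 (0.341 to 3.55) for macrophage genes. The MHC class I pathway held 7 counts in KS100+anti-PD-1 and 34 in KS100 (0.395, interval 0.148 to 0.905). Fibroblast and matrix genes stood at 1.12 (0.698 to 1.76) and endothelial genes at 0.831 (0.398 to 1.64). At this depth a difference in immune markers rests on a few counts and depends on the scaling.

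**Figure D4:**
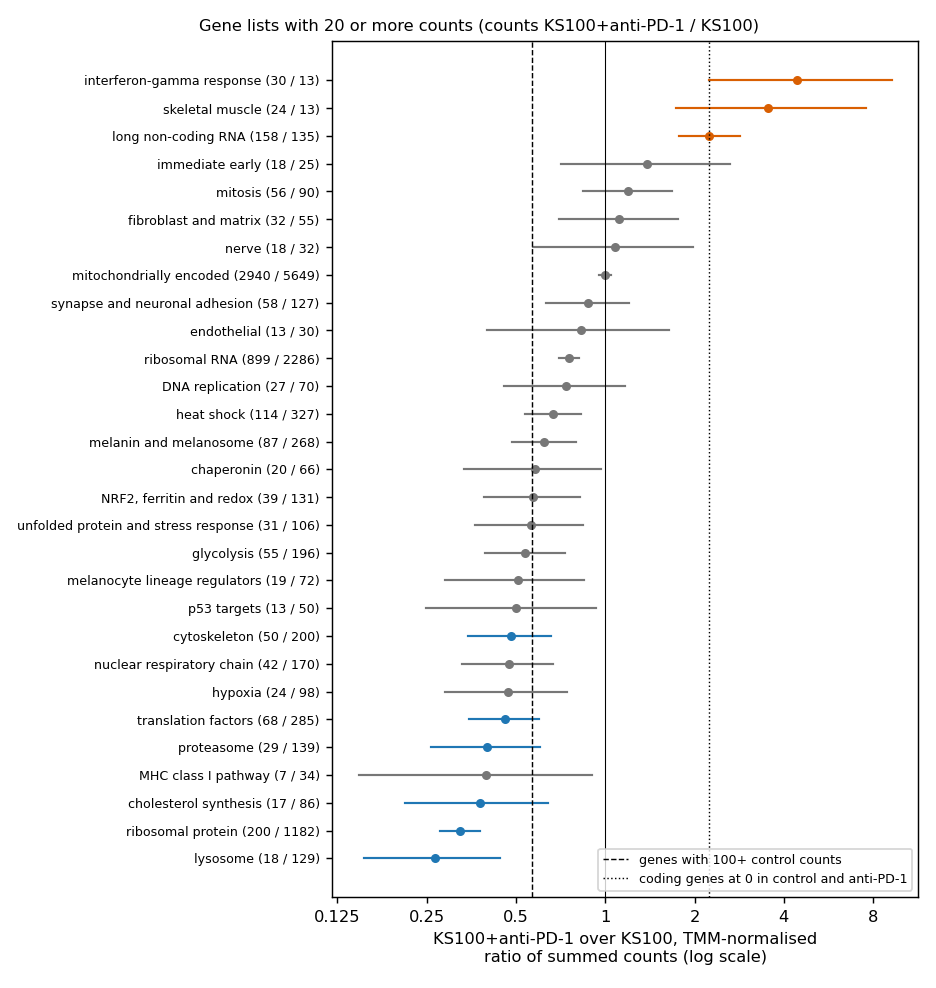
Summed ratio of each gene list with 20 or more counts in either pool (points; 95% exact interval; log axis), orange where higher and blue where lower by the call rule, with counts in KS100+anti-PD-1 and KS100 beside each name. The interferon-gamma response list is highest at 4.43 and the lysosome list lowest at 0.268; the dashed line marks 0.567, the ratio of nuclear coding genes with 100 or more control counts, and the dotted line 2.24, that of coding genes at 0 in control and anti-PD-1.

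The same antibody was added in 2 other arms, whose libraries are not part of this pair. In anti-PD-1 over control, 2.14% of 8119 genes were lower and 2.69% higher (4.83% in either direction). In AZD5363+MK1775+anti-PD-1 over AZD5363+MK1775, 3.72% of 2793 genes were lower and 11.1% higher (14.8% in either direction). Of the 71 genes lower here, 37 were also lower in the AZD5363+MK1775 arm, 52.1% of the 71 and 35.6% of the 104 lower there. Members not past the rule here were often lower there too, 19 of 120 tested (15.8%). For ribosomal protein members the shares were 17 of 29 lower here (58.6%) and 10 of 25 not past (40%). Of the 71, 1 was also lower in anti-PD-1 over control. The 54 ribosomal protein members had a median ratio of 0.251 in KS100+anti-PD-1 over KS100, 0.459 in AZD5363+MK1775+anti-PD-1 over AZD5363+MK1775, with 27 lower there, and 1.02 in anti-PD-1 over control, with 3 lower. Rpl37 was the lowest of the ribosomal protein members in both inhibitor arms, at 0.0114 in the KS100 arm and 0.104 in the AZD5363+MK1775 arm. Among the 9 higher genes, mt-Nd2 (9.87) and mt-Nd5 (2.33) were also higher in the AZD5363+MK1775 arm. With library totals in place of TMM factors 57 of 83 lower genes were shared, and with TMM factors from the KS100 pools alone 6 of 11. Library totals also move every ratio in the AZD5363+MK1775 arm down. The difference between arms was not tested, since each arm has 1 library per antibody.

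**Figure D5:**
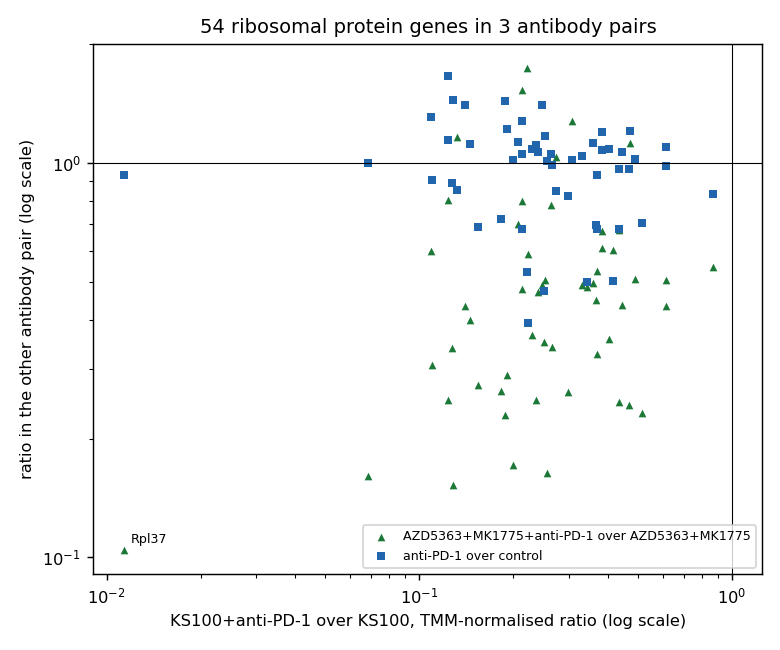
Ratio of each of the 54 ribosomal protein members in KS100+anti-PD-1 over KS100 (horizontal) against its ratio in the other antibody pairs (vertical), log axes; triangles, AZD5363+MK1775 arm; squares, DMSO arm. All 54 lie left of 1 on the horizontal axis (49 with TMM factors from the KS100 pools alone), where 188 of all 209 members also stood. On the vertical axis, 48 triangles and 24 squares lie below 1.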

How the data were processed

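The authors deposited 1 table of raw read counts, in whole numbers, with a row for each Ensembl gene and a column for each of 6 pools. Libraries were made with a QuantSeq 3′ FWD kit and sequenced on a MiSeq, per the labels' protocols. Per the submitters' processing notes, bcl2fastq, HISAT2 2.1.0, HTSeq and GRCm38 were used. The sources used here do not give the annotation release, trimming, strand setting or handling of multiply matching reads. The table also held 92 spike-in names, all at 0 and left out.

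Symbols, gene types, coordinates and transcript sequences came from GENCODE M21 (GRCm38), which held 42548 of the 43629 genes. TMM factors were computed over all 6 pools with edgeR 4.0.16 in R 4.3.3. Log2 ratios used a prior count of 2, and a ratio against 0 counts was bounded against 3 counts in that pool. With 1 pool per treatment there was no test: genes were called by the size rule given in the report, and the rule was tested on simulated data. The genes named are the 15 calls in each direction farthest past the rule, called members and the 2 most counted genes of each list, the drug and antibody targets, the 10 members with the most counts and those nearest the rule. Others (Hsp90aa1, Ptma, Rpl4, repeat and pseudogene relatives) were named after their values were seen, and 1 gene that the rule names is not reported here. The members and lists were chosen with earlier results of these data known. Alternatives covered the scaling (DESeq2 1.42.0 size factors among others), the minimum count, the call rule, depth and the genes used.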

Additional observations from a re-analysis of the deposited data

Results flagged for a closer look

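For 5 genes and 1 list, adding anti-PD-1 went past the call rule in opposite directions in different arms (KS100, AZD5363+MK1775 or DMSO). The difference between arms was not tested, since each arm has 1 library per antibody. Gm26870 was higher in KS100+anti-PD-1 over KS100 at 619.2, while in anti-PD-1 over control it had 0 counts in anti-PD-1 and 120 in control (interval up to 0.0482). Kcnq1ot1 was higher at 5.854 in the KS100 arm and lower at 0.399 in the DMSO arm. In the KS100 arm Actb was lower at 0.3069, Syt4, a synaptotagmin of vesicle traffic, at 0.2896, and Mitf at 0.09592. In the AZD5363+MK1775 arm the same genes were higher, Actb at 5.03, Syt4 at 4.82 and Mitf at 3.04. Over all genes tested in each arm the median log2 ratio was -1.35 in the KS100 arm and 1.10 in the AZD5363+MK1775 arm. The arms as wholes thus also stood in opposite directions. For these genes no other scaling of the AZD5363+MK1775 arm is given. The cytoskeleton list stood at 0.4796 in the KS100 arm and 3.49 in the AZD5363+MK1775 arm. In the KS100 arm Actb, Syt4, Mitf and the cytoskeleton list were not past the rule with TMM factors from the KS100 pools alone (list at 0.995) or with well-counted genes (0.846), and the list was not past it without Actb (0.583).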

How the results depend on the processing

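The scaling and the minimum count moved the counts of calls most, and the cause was not tested. With TMM between the KS100 pools alone, 15 genes were higher, 11 lower and the median log2 ratio was -0.43. With totals of well-counted nuclear protein-coding genes (chosen after seeing the data), 14 genes were higher, 20 lower and the median was -0.64. With totals of all nuclear protein-coding genes the median was -1.20. A minimum of 10 counts gave 35 higher genes and a median of -0.97, a minimum of 50 gave 4 higher and 35 lower, and no minimum gave 132 higher and a median of 0.20, a reversal. Higher genes made up 11.2% of all calls in the main setting, 57.7% with TMM between the KS100 pools alone, 41.2% with well-counted genes, 26.9% with a minimum of 10 and 58.1% with no minimum.

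The lower genes numbered 42 with the KS100 pool thinned to the KS100+anti-PD-1 total, 128 with an interval beyond 1-fold, 36 with a ratio of 4 and an interval beyond 2-fold, and 42 without ribosomal protein genes. Without mitochondrial genes and pseudogenes 5 genes were higher. The share of counts in genes at 0 in control and anti-PD-1 was 28.7% in KS100+anti-PD-1 and 12.6% in KS100 with mitochondrial and ribosomal RNA genes left out, and over protein-coding genes 9.17% in KS100+anti-PD-1 and 4.47% in KS100. Calls shared with anti-PD-1 over control were 1 in the main setting and 0 with TMM between the KS100 pools alone. Lower calls shared with the AZD5363+MK1775 arm were 57 of 83 with library totals and 6 of 11 with TMM between the KS100 pools alone. In the main setting they were 37 of 71. Without its most counted gene, the long non-coding RNA list turned to 0.779 and heat shock to 2.23 (higher), and skeletal muscle, translation factors, proteasome, cytoskeleton and cholesterol synthesis were not past the rule. No paired analysis was possible because each treatment is 1 pool and the replicate numbers only name the pools. The depth of the KS100+anti-PD-1 pool leaves most genes under the minimum.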

Other observations

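Among genes just under the minimum, with 10 to 19 counts in the larger pool (496 genes), 26 passed the same rule as higher and 24 as lower, and these were looked at after the values were seen. All 24 lower genes were protein-coding and had counts in control or anti-PD-1. Of the 26 higher ones 13 were protein-coding and 12 were at 0 in both control and anti-PD-1. The higher coding genes included Mki67, a marker of cycling cells, with 12 counts in KS100+anti-PD-1 and 4 in KS100, and Cenpf, a kinetochore protein, with 10 in KS100+anti-PD-1 and 1 in KS100. They also included Cd84, a surface receptor of leukocytes, with 17 in KS100+anti-PD-1 and 5 in KS100. Cish, a cytokine-induced inhibitor of cytokine signalling, had 11 in KS100+anti-PD-1 and 2 in KS100. These genes are picked examples, and others went the other way. Ms4a6b, also a leukocyte gene, was lower, with 0 counts in KS100+anti-PD-1 and 14 in KS100. Among the members the cell cycle gene Cks1b was lower at 0.160 with TMM factors over all 6 pools, and the mitosis list was not past the rule (1.19).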
